A study of Ambystoma mexicanum with 9 samples.

Results

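Genes that build cilia were followed across 9 custom Affymetrix arrays of axolotl spinal cord tissue. The members were picked by gene symbol alone: the dynein chain families DNAH, DNAI and DNAL, the tektins (TEKT), the radial spoke head proteins (RSPH), the numbered intraflagellar transport genes (IFT), the Bardet-Biedl genes (BBS), the CFAP family, and SPAG6, SPAG16, SPAG17, AK7, SPA17 and FOXJ1. A total of 53 probe sets for 42 genes matched, out of 20035 probe sets and 8639 named genes tested on the array. They split into 30 axonemal probe sets for 26 genes, 22 IFT and BBS probe sets for 15 genes, and 1 probe set for FOXJ1. No probe set matched a CFAP symbol or SPAG17, and the 9084 probe sets that carry no symbol could not be assigned. A probe set is the group of short probes that reads 1 transcript, and 7 of the member genes had more than 1 of them.

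The 3 groups held 3 arrays each, and every array carried RNA pooled from 10 axolotls of 2 to 3 cm, so that the spread between arrays is a spread between pools. The 1dpiT group was sampled 1 day after ivermectin, a compound that opens glycine-gated chloride channels, had been injected. The 1dpi group was sampled 1 day after injury, and the 0dpi group was uninjured. According to the series text, ivermectin or water went into the central canal just before a piece of cord was taken out, and the injured area was collected a day later. The sample labels describe the 1dpi injury as a crush and do not name its injection, and for 1dpiT they name the injection only. In 1dpi vs 0dpi, injury and a water injection therefore cannot be told apart. In 1dpiT vs 1dpi, the labels alone do not separate ivermectin from a difference in how the cord was injured. In 1dpiT vs 0dpi, ivermectin, its injection and injury cannot be told apart. The sources used here give neither strain nor age.

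A cilium is a thin extension of the cell surface built on an axoneme, a ring of doublet microtubules. In motile cilia the doublets carry outer and inner dynein arms, motor complexes made of heavy, intermediate and light chains, as well as radial spokes that face a central pair of microtubules, and tektins are filament proteins that line the inside of the doublets. Most cilia, motile or not, are assembled by intraflagellar transport, in which IFT-B trains carry cargo to the tip and IFT-A trains return it. The BBSome is a coat that moves membrane proteins along with these trains. In the spinal cord, motile cilia are borne by the ependymal cells that line the central canal, and FOXJ1 is the transcription factor best known for switching on motile cilium genes.

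Some features of the whole array set bear on all values that follow. Across all probe sets, arrays of 1 group correlated at r = 0.997 to 0.999, the 1dpiT arrays correlated with the 0dpi arrays at 0.996 to 0.997, and the 1dpi arrays stood apart from both, at 0.967 to 0.968 with 1dpiT and 0.971 to 0.972 with 0dpi. The 24 poly-A spike-in probe sets, which read RNA added in a fixed amount, averaged 7.43 ± 0.05 in 1dpiT, 8.08 ± 0.04 in 1dpi and 7.54 ± 0.03 in 0dpi (log2 signal, SD, n = 3 arrays each). Markers of cord tissue were present, such as the glial filament GFAP at 10.4 and the myelin protein MBP at 11.1 in every 1dpiT array. Markers of other tissues were present as well, among them the muscle light chain MYL1 at 14.1 and the epithelial keratin KRT8 at 13.5 in every 1dpiT array. All values below are log2 signals, where 1 unit is a 2-fold change, and a gene is said to rise or fall only where limma gave an adjusted p below 0.05. The 3 comparisons share their arrays, and the differences of the first 2 add up to that of the third, so they are not independent of each other.

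Most axonemal genes were lower in 1dpiT than in 1dpi, and higher in 1dpi than in 0dpi. In 1dpiT vs 1dpi, 22 of the 30 axonemal probe sets fell (73.3%) and 1 rose, where 25.0% of all probe sets on the array fell and 29.0% rose. In 1dpi vs 0dpi, 22 rose (73.3%) and 1 fell, where 24.7% of all probe sets rose and 28.2% fell. In 1dpiT vs 0dpi, 7 rose (23.3%) and 0 fell, where 2.26% of all probe sets rose and 3.34% fell, and 13 were higher and 0 lower with an unadjusted p under the same limit (9.38% and 9.12% of all). The median axonemal difference was -0.85 in 1dpiT vs 1dpi, 1.10 in 1dpi vs 0dpi and 0.15 in 1dpiT vs 0dpi, while the median over all probe sets was -0.0021, -0.00089 and 0.0054. In pooled tissue, fewer ciliated cells and less cilium RNA per cell cannot be told apart.

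On the deposited scale, the mean over the 30 axonemal probe sets gave the same order array by array. It was 4.996, 5.003 and 4.964 in 1dpiT, 5.65, 5.61 and 5.62 in 1dpi, and 4.81, 4.75 and 4.81 in 0dpi. No array of a group reached into the range of another group. For most single members the groups did not overlap in the comparisons with 1dpi: 23 axonemal probe sets lay wholly lower in 1dpiT than in 1dpi (28.4% of all probe sets did) and 1 wholly higher (32.0% of all), and 24 lay wholly higher in 1dpi than in 0dpi (28.0% of all) and 1 wholly lower (31.4% of all). Between 1dpiT and 0dpi, 12 lay wholly higher in 1dpiT (12.1% of all).

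How the arrays were put on 1 scale bears on these directions. The poly-A spike-ins were 0.65 lower in 1dpiT than in 1dpi and 0.55 higher in 1dpi than in 0dpi, and centring each array on them shifted the median of all probe sets to 0.65 in 1dpiT vs 1dpi, -0.55 in 1dpi vs 0dpi and 0.11 in 1dpiT vs 0dpi. On that scale 14 axonemal probe sets still fell in 1dpiT vs 1dpi, all of them among the 22, where 5.60% of all probe sets fell, but 12 rose (87.5% of all rose). In 1dpi vs 0dpi, 16 still rose, all among the 22, where 6.32% of all did, and 11 fell (84.6% of all fell). TEKT4 then differed by -0.84 in 1dpiT vs 1dpi and 1.57 in 1dpi vs 0dpi. The axonemal medians kept their sign, at -0.20, 0.55 and 0.25 in the 3 comparisons. The axonemal array means of 1dpiT and 1dpi, however, lay about as far apart as the 0.65 shift of the spike-ins. The order of these groups by array mean therefore rests on the scaling. The IFT and BBS medians turned to 0.55 and -0.45 in the comparisons with 1dpi, and 21 of the 22 IFT and BBS probe sets rose in 1dpiT vs 1dpi. IFT172 was the IFT gene that still fell in 1dpiT vs 1dpi (-0.27) and rose in 1dpi vs 0dpi (0.22). Centring moves all probe sets of an array by the same amount, so differences relative to the shift of all probe sets stayed as they were. Except where stated, the values that follow are on the deposited scale.

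**Figure D1:**
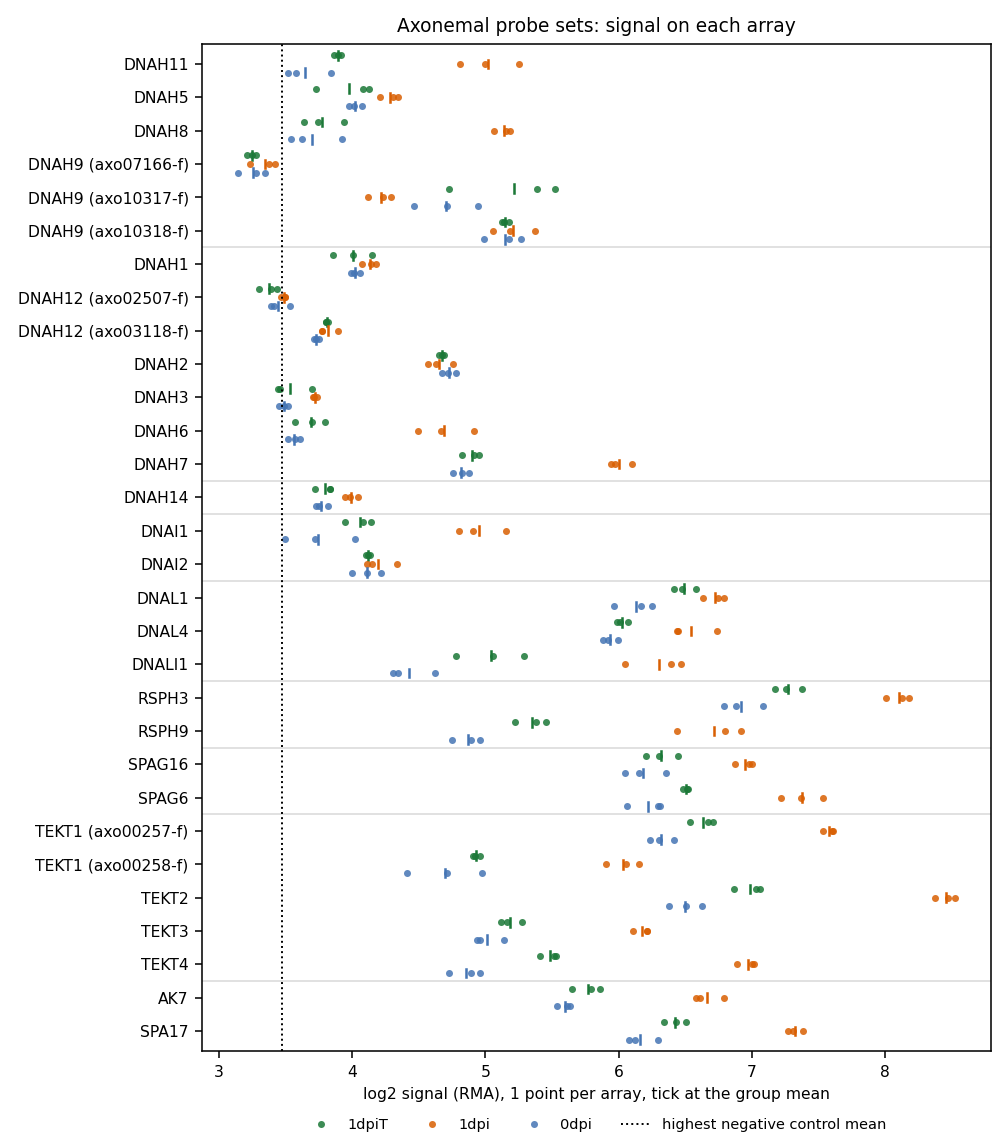
Log2 signal of the 30 axonemal probe sets (rows, grouped by role) on each of the 9 arrays, as 1 point per array in 1dpiT (green), 1dpi (orange) and 0dpi (blue), with a tick at each group mean and a dotted line at the highest negative control mean (3.47). In most rows the 1dpi points lie to the right of the other groups, and the DNAH9 row axo10317-f is the 1 that was called in the other direction.

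All 5 tektin probe sets, for 4 genes, fell in 1dpiT vs 1dpi and rose in 1dpi vs 0dpi. TEKT4 read 5.41, 5.53 and 5.52 in 1dpiT, 7.02, 6.89 and 7.0 in 1dpi, and 4.96, 4.73 and 4.89 in 0dpi. All 3 groups were separate for TEKT4, with 1dpiT between the others. TEKT4 was 2.80-fold lower in 1dpiT than in 1dpi (log2 difference -1.49 ± 0.07, SE, adjusted p = 4.42e-08) and 4.32-fold higher in 1dpi than in 0dpi (2.11 ± 0.07, adjusted p = 4.68e-09). It was also higher in 1dpiT than in 0dpi, by 0.63 ± 0.07 (adjusted p = 0.000615).

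TEKT2 followed the same course. It read 6.87, 7.03 and 7.06 in 1dpiT, 8.47, 8.38 and 8.53 in 1dpi, and 6.50, 6.38 and 6.63 in 0dpi, again with no overlap between any groups. The log2 difference of TEKT2 was -1.47 ± 0.08 in 1dpiT vs 1dpi (adjusted p = 1.01e-07), 1.96 ± 0.08 in 1dpi vs 0dpi (adjusted p = 1.62e-08) and 0.48 ± 0.08 in 1dpiT vs 0dpi (adjusted p = 0.00528). The gene TEKT1 had 2 probe sets, which fell by 0.95 and 1.11 in 1dpiT vs 1dpi and were 1.26 and 1.34 higher in 1dpi than in 0dpi. The brighter of them was also higher in 1dpiT than in 0dpi, by 0.32 ± 0.06 (adjusted p = 0.0182), and the other read 0.23 ± 0.12 higher without a call. TEKT3 fell by 0.99 ± 0.07 in 1dpiT vs 1dpi, rose by 1.16 ± 0.07 in 1dpi vs 0dpi, and differed by 0.17 ± 0.07 in 1dpiT vs 0dpi, which was not called.

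Both radial spoke genes rose and fell with the tektins. RSPH9, a spoke head protein, read 5.38, 5.45 and 5.22 in 1dpiT, 6.80, 6.92 and 6.44 in 1dpi, and 4.75, 4.89 and 4.96 in 0dpi. The groups were separate, and the 1dpi arrays spread over a wider range than the others. RSPH9 was 2.58-fold lower in 1dpiT than in 1dpi (-1.37 ± 0.12, adjusted p = 3.45e-06), 3.61-fold higher in 1dpi than in 0dpi (1.85 ± 0.12, adjusted p = 4.17e-07) and 1.40-fold higher in 1dpiT than in 0dpi (0.49 ± 0.12, adjusted p = 0.0395). RSPH3, a protein of the spoke stalk, read 7.18, 7.26 and 7.38 in 1dpiT, 8.01, 8.13 and 8.18 in 1dpi, and 6.88, 6.80 and 7.08 in 0dpi. RSPH3 differed by -0.84 ± 0.08 (adjusted p = 1.20e-05), 1.19 ± 0.08 (adjusted p = 9.82e-07) and 0.35 ± 0.08 (adjusted p = 0.0405) in the same order of comparisons.

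The central apparatus, the structure built on the central pair, was read by SPAG6 and SPAG16. SPAG6 read 6.48, 6.52 and 6.51 in 1dpiT, 7.37, 7.22 and 7.54 in 1dpi, and 6.06, 6.29 and 6.31 in 0dpi. It fell by 0.87 ± 0.09 in 1dpiT vs 1dpi and rose by 1.15 ± 0.09 in 1dpi vs 0dpi. SPAG16 fell by 0.63 ± 0.09 in 1dpiT vs 1dpi and rose by 0.76 ± 0.09 in 1dpi vs 0dpi. Neither was called in 1dpiT vs 0dpi, where they read 0.28 ± 0.09 (adjusted p = 0.105) and 0.13 ± 0.09 higher. AK7, an adenylate kinase of motile cilia, and SPA17, a small protein of sperm tails and motile cilia, changed by nearly the same amounts as each other. AK7 fell by 0.89 ± 0.07 and SPA17 by 0.90 ± 0.07 in 1dpiT vs 1dpi, and they were 1.07 ± 0.07 and 1.16 ± 0.07 higher in 1dpi than in 0dpi. Neither of these genes was called in 1dpiT vs 0dpi, at 0.17 and 0.26 higher.

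Among the dynein chains, which make up the arms, some were called and some were not. All 3 light chain genes fell in 1dpiT vs 1dpi and rose in 1dpi vs 0dpi. DNALI1, a light intermediate chain of the inner arms, read 4.78, 5.06 and 5.29 in 1dpiT, 6.39, 6.05 and 6.47 in 1dpi, and 4.35, 4.30 and 4.63 in 0dpi. Its groups did not overlap, although each spanned 0.3 log2 units or more. DNALI1 was 2.39-fold lower in 1dpiT than in 1dpi (-1.26 ± 0.15, adjusted p = 3.64e-05), 3.67-fold higher in 1dpi than in 0dpi (1.88 ± 0.15, adjusted p = 2.05e-06) and 1.54-fold higher in 1dpiT than in 0dpi (0.62 ± 0.15, adjusted p = 0.0380). DNAL1, an outer arm light chain, read 6.48, 6.58 and 6.42 in 1dpiT, 6.63, 6.75 and 6.79 in 1dpi, and 6.25, 5.97 and 6.17 in 0dpi. Here 1dpiT lay nearer 1dpi than 0dpi, with differences of -0.23 ± 0.08 in 1dpiT vs 1dpi (adjusted p = 0.0318), 0.60 ± 0.08 in 1dpi vs 0dpi (adjusted p = 0.000117) and 0.36 ± 0.08 in 1dpiT vs 0dpi (adjusted p = 0.0278). DNAL4 differed by -0.52, 0.61 and 0.09, and its last value was not called.

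Of the intermediate chains, which anchor the outer arm on the doublet, DNAI1 changed and DNAI2 was not called in any comparison. DNAI1 read 4.14, 4.08 and 3.94 in 1dpiT, 5.15, 4.91 and 4.80 in 1dpi, and 3.72, 4.02 and 3.49 in 0dpi, so that only 1dpi was separate. It was lower in 1dpiT than in 1dpi by 0.90 on the log2 scale (difference -0.90 ± 0.13) and rose by 1.21 ± 0.13 in 1dpi vs 0dpi. The lowest 0dpi array of DNAI1 lay near the highest negative control mean of 3.47. DNAI2 read between 4.0 and 4.3 on all 9 arrays, and its differences were -0.08 ± 0.07, 0.09 ± 0.07 and 0.01 ± 0.07.

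Among the outer arm heavy chains, the motor subunits themselves, DNAH8, DNAH11 and DNAH5 were called in both comparisons with 1dpi. DNAH8 read 3.64, 3.74 and 3.94 in 1dpiT, 5.19, 5.16 and 5.07 in 1dpi, and 3.93, 3.54 and 3.63 in 0dpi. DNAH8 in 1dpiT and 0dpi overlapped and lay not far above the highest negative control mean of 3.47, while the 1dpi arrays were all above 5. It was 2.57-fold lower in 1dpiT than in 1dpi (-1.36 ± 0.10, adjusted p = 1.53e-06) and 2.71-fold higher in 1dpi than in 0dpi (1.44 ± 0.10, adjusted p = 1.13e-06). DNAH11 read 3.87, 3.90 and 3.92 in 1dpiT, 5.25, 4.81 and 5.0 in 1dpi, and 3.84, 3.58 and 3.52 in 0dpi. Its differences were -1.13 ± 0.11 (adjusted p = 1.06e-05) and 1.37 ± 0.11 (adjusted p = 2.65e-06). The 0dpi arrays of DNAH11 also lay not far above the highest negative control mean. DNAH5 moved little, by -0.31 ± 0.10 and 0.27 ± 0.10 (adjusted p = 0.0200 and 0.0399), and lost these calls when single arrays were left out, with adjusted p up to 0.0649 in 1dpiT vs 1dpi without replicate 3 of 1dpi and up to 0.113 in 1dpi vs 0dpi without the same array.

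DNAH9, a further outer arm heavy chain, was the exception. Its probe set axo10317-f_at read 5.39, 5.52 and 4.73 in 1dpiT, 4.29, 4.12 and 4.23 in 1dpi, and 4.95, 4.46 and 4.71 in 0dpi. This was the 1 axonemal probe set that rose in 1dpiT vs 1dpi (1.00 ± 0.19, adjusted p = 0.00104) and the 1 that fell in 1dpi vs 0dpi (-0.49 ± 0.19, adjusted p = 0.0473), and the call in 1dpi vs 0dpi was lost in 6 of the 9 fits with an array left out. The other probe sets of DNAH9 were not called. The brighter of them, axo10318-f_at, lay between 4.99 and 5.38 on all 9 arrays, with differences of -0.06 ± 0.09 and 0.06 ± 0.09, and the dimmer one, axo07166-f_at, lay below the highest negative control mean. The probe sets of DNAH9 thus do not give 1 direction for the gene.

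Of the inner arm heavy chains, DNAH6 and DNAH7 were called with large differences and DNAH3 with a small one. DNAH7 read 4.95, 4.92 and 4.83 in 1dpiT, 5.97, 6.10 and 5.94 in 1dpi, and 4.87, 4.76 and 4.83 in 0dpi, with the 1dpi arrays about 1 log2 unit above the rest. It differed by -1.11 ± 0.06 in 1dpiT vs 1dpi and 1.18 ± 0.06 in 1dpi vs 0dpi. DNAH6 differed by -1.003 ± 0.099 and 1.13 ± 0.10 in the same comparisons, with 4.92 in the highest 1dpi array and 3.52 in the lowest 0dpi array. The 1dpiT and 0dpi arrays of DNAH6 lay not far above the highest negative control mean of 3.47. DNAH3 (-0.18 ± 0.07 and 0.23 ± 0.07) lay near the negative controls, and its first call was lost in 8 of the 9 fits with an array left out. DNAH14, a heavy chain with no settled place in the arms, differed by -0.19 ± 0.05 and 0.22 ± 0.05. DNAH1, DNAH2 and both probe sets of DNAH12 were not called in any comparison, and their differences lay between -0.13 and 0.11. No dynein heavy chain was called in 1dpiT vs 0dpi.

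Calls were more frequent at higher signal, among axonemal probe sets and on the array as a whole. Of the 16 axonemal probe sets with a mean of 5 or more over the 9 arrays, 15 fell in 1dpiT vs 1dpi (30.4% of all probe sets of that signal did), 15 rose in 1dpi vs 0dpi (30.1% of all of that signal) and 7 rose in 1dpiT vs 0dpi (3.30%). Of the 14 below a mean of 5, 7 fell and 1 rose in 1dpiT vs 1dpi (16.2% and 12.3% of all below 5), 7 rose and 1 fell in 1dpi vs 0dpi (16.0% and 11.7%), and 0 were called in 1dpiT vs 0dpi (0.563% of all below 5 rose and 0.511% fell). The 2 axonemal probe sets below the highest negative control mean, DNAH12 (axo02507-f_at) and DNAH9 (axo07166-f_at), were not called in any comparison. With p not adjusted and a 2-fold limit set, as in the gene counts of the study, 9 axonemal probe sets were lower in 1dpiT than in 1dpi (3.87% of all probe sets were), 16 were higher and 0 lower in 1dpi than in 0dpi (3.61% and 3.51% of all), and 0 were higher in 1dpiT than in 0dpi (0.0349% of all).

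**Figure D2:**
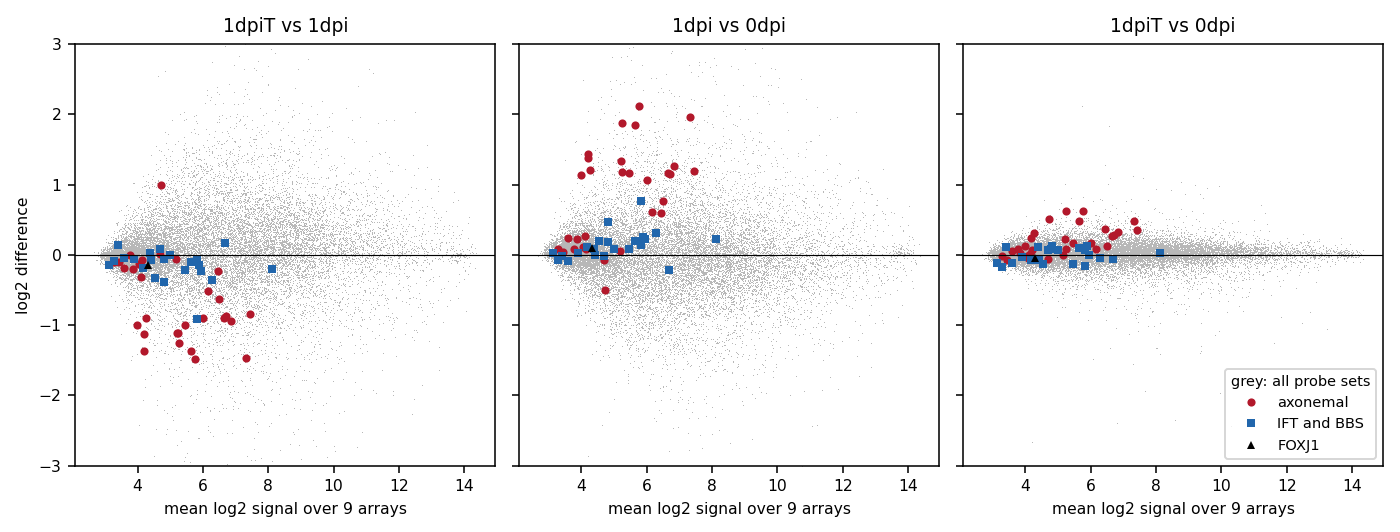
Log2 difference (vertical axis, cut at 3 in each direction) against the mean log2 signal over 9 arrays (horizontal axis) for all 20035 probe sets (grey), axonemal members (red circles), IFT and BBS members (blue squares) and FOXJ1 (black triangle) in the 3 comparisons, with 67, 54 and 0 grey points outside the axis from left to right. The red circles with a mean of 5 or more lie below 0 in 1dpiT vs 1dpi and above 0 in 1dpi vs 0dpi, and the blue squares lie mostly within 0.4 of 0. The mean takes in the 1dpi arrays, so some members pass 5 through 1dpi alone.

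The 7 axonemal calls in 1dpiT vs 0dpi were TEKT4, DNALI1, RSPH9, TEKT2, DNAL1, RSPH3 and the brighter TEKT1 probe set, with log2 differences from 0.32 to 0.63. TEKT4 and TEKT2 kept their call with each array left out in turn. With the arrays centred on their hybridization controls, where 0.23% of all probe sets rose, only TEKT4 (0.49, adjusted p = 0.0238) and DNALI1 (0.49, adjusted p = 0.0274) were called. TEKT2 was not called on that scale (0.35, adjusted p = 0.221). The 5 calls other than TEKT4 and TEKT2 were lost in at least 1 fit with an array left out. The count dropped to 3 without replicate 1 or 2 of 1dpiT or replicate 2 of 0dpi. It dropped to 4 without replicate 3 of 1dpiT or replicate 1 or 3 of 0dpi. The counts of 4 include 1 call gained without replicate 3 of 1dpiT, DNAH9 (axo10317-f_at), and 1 gained without replicate 1 of 0dpi, SPA17. In 1dpiT vs 1dpi, 20 of the 23 axonemal calls held in all 9 such fits, and those lost in some were DNAH3, DNAH5 and DNAL1. In 1dpi vs 0dpi, 21 of 23 held in all 9, and those lost in some were DNAH5 and DNAH9 (axo10317-f_at).

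FOXJ1 was not called in any comparison. Its probe set read 4.24, 4.18 and 4.32 in 1dpiT, 4.35, 4.26 and 4.56 in 1dpi, and 4.34, 4.29 and 4.23 in 0dpi. All 3 groups overlapped, and the differences were -0.14 ± 0.08 in 1dpiT vs 1dpi (adjusted p = 0.146), 0.10 ± 0.08 in 1dpi vs 0dpi (adjusted p = 0.302) and -0.04 ± 0.08 in 1dpiT vs 0dpi (adjusted p = 0.846). With a mean signal within 1 log2 unit of the highest negative control mean, its missing calls do not show that its level was equal in the groups, and its sign turned in all 3 comparisons under poly-A centring (0.50, -0.44 and 0.06).

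IFT and BBS genes gave smaller differences, whose median turned sign in both comparisons with 1dpi under poly-A centring and in 1dpi vs 0dpi when the arrays were centred on their hybridization controls. In 1dpiT vs 1dpi, 8 of the 22 probe sets fell (36.4%, against 25.0% of all probe sets) and 0 rose, with a median of -0.10. In 1dpi vs 0dpi, 7 rose (31.8%, against 24.7% of all) and 1 fell, with a median of 0.10. In 1dpiT vs 0dpi, limma called 0 of them, with 2 lower and 0 higher by the unadjusted p (9.12% and 9.38% of all), and the median was -0.02. For the opposite directions, 29.0% of all probe sets rose in 1dpiT vs 1dpi and 28.2% fell in 1dpi vs 0dpi, and the difference of the 22 from all probe sets was not tested. The array means over the 22 probe sets were 4.91, 4.96 and 4.94 in 1dpiT, 5.02, 5.11 and 5.11 in 1dpi, and 4.93, 4.95 and 4.97 in 0dpi, so the 1dpi arrays were again the highest, by about 0.1. The difference between the axonemal and the IFT and BBS members was not tested.

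IFT172, a large IFT-B subunit, had the largest differences of the IFT and BBS members in both comparisons with 1dpi. It read 5.55, 5.54 and 5.32 in 1dpiT, 6.36, 6.44 and 6.36 in 1dpi, and 5.52, 5.63 and 5.72 in 0dpi. The 1dpi arrays were all above the others, and 1dpiT and 0dpi overlapped. IFT172 was 1.89-fold lower in 1dpiT than in 1dpi (-0.92 ± 0.08, adjusted p = 2.58e-06) and 1.70-fold higher in 1dpi than in 0dpi (0.76 ± 0.08, adjusted p = 1.17e-05), and the difference in 1dpiT vs 0dpi was -0.16 ± 0.08 (adjusted p = 0.307).

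Among the other IFT-B subunits, the changes were 0.35 or less. IFT88, needed for cilium assembly in mouse, had 2 probe sets, and the one of higher signal read 6.19, 6.07 and 6.19 in 1dpiT, 6.37, 6.52 and 6.61 in 1dpi, and 6.12, 6.20 and 6.27 in 0dpi. It fell by 0.35 ± 0.07 in 1dpiT vs 1dpi (adjusted p = 0.00175) and rose by 0.31 ± 0.07 in 1dpi vs 0dpi (adjusted p = 0.00435), while the dimmer one was not called. IFT74, a subunit of the IFT-B core, fell by 0.21 ± 0.05 in 1dpiT vs 1dpi (adjusted p = 0.00292) and differed by 0.08 ± 0.05 in 1dpi vs 0dpi. IFT20, which also works at the Golgi, fell by 0.19 ± 0.07 in 1dpiT vs 1dpi and rose by 0.23 ± 0.07 in 1dpi vs 0dpi (adjusted p = 0.0304 and 0.0153).

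The remaining IFT-B subunits gave calls in 1dpi vs 0dpi alone or none. IFT57 was 0.26 ± 0.08 higher in 1dpi than in 0dpi (adjusted p = 0.0199) and lost its call in 3 of the 9 fits with an array left out. The brighter probe set of IFT80 was 0.19 ± 0.07 higher (adjusted p = 0.0403), with groups that overlapped. It lost its call when any array of 1dpiT or 0dpi, or replicate 2 or 3 of 1dpi, was left out (adjusted p up to 0.150). IFT52 was the 1 member to go the other way in that comparison. It read 6.70, 6.70 and 6.73 in 1dpiT, 6.35, 6.62 and 6.66 in 1dpi, and 6.79, 6.68 and 6.82 in 0dpi, a difference of -0.22 ± 0.08 in 1dpi vs 0dpi (adjusted p = 0.0407) that lost its call in 6 of the 9 fits with an array left out and was -0.12 (adjusted p = 0.113) without replicate 1 of 1dpi. IFT81 was not called.

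Both IFT-A genes were called. IFT140 read 4.78, 4.69 and 4.64 in 1dpiT, 5.02, 5.19 and 5.03 in 1dpi, and 4.63, 4.60 and 4.61 in 0dpi, with 1dpi above both other groups. It fell by 0.38 ± 0.06 in 1dpiT vs 1dpi (adjusted p = 0.000359) and rose by 0.47 ± 0.06 in 1dpi vs 0dpi (adjusted p = 9.12e-05). Of the 4 probe sets of IFT122, the brightest fell by 0.22 ± 0.07 in 1dpiT vs 1dpi (adjusted p = 0.0177) and rose by 0.22 ± 0.07 in 1dpi vs 0dpi (adjusted p = 0.0198), a second fell by 0.18 ± 0.06 in 1dpiT vs 1dpi, and the 2 that were not called lay below the highest negative control mean.

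The BBSome was read by BBS2, BBS4, BBS7 and BBS9. BBS7 read 4.25, 4.51 and 4.37 in 1dpiT, 4.68, 4.60 and 4.83 in 1dpi, and 4.39, 4.55 and 4.57 in 0dpi, and fell by 0.33 ± 0.08 in 1dpiT vs 1dpi (adjusted p = 0.00766). The difference of BBS7 in 1dpi vs 0dpi was 0.20 ± 0.08 (adjusted p = 0.0714). No probe set of BBS2, BBS4 or BBS9 was called in any comparison, nor was BBS12, a chaperonin-like protein that helps assemble the BBSome and lay below the highest negative control mean. For the IFT and BBS members, 5 of the 8 calls in 1dpiT vs 1dpi and 3 of the 8 in 1dpi vs 0dpi held with each array left out in turn. The 3 were IFT172, IFT140 and the brighter IFT88 probe set, and the count of rises dropped to 4 without replicate 3 of 1dpi or replicate 2 or 3 of 0dpi.

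**Figure D3:**
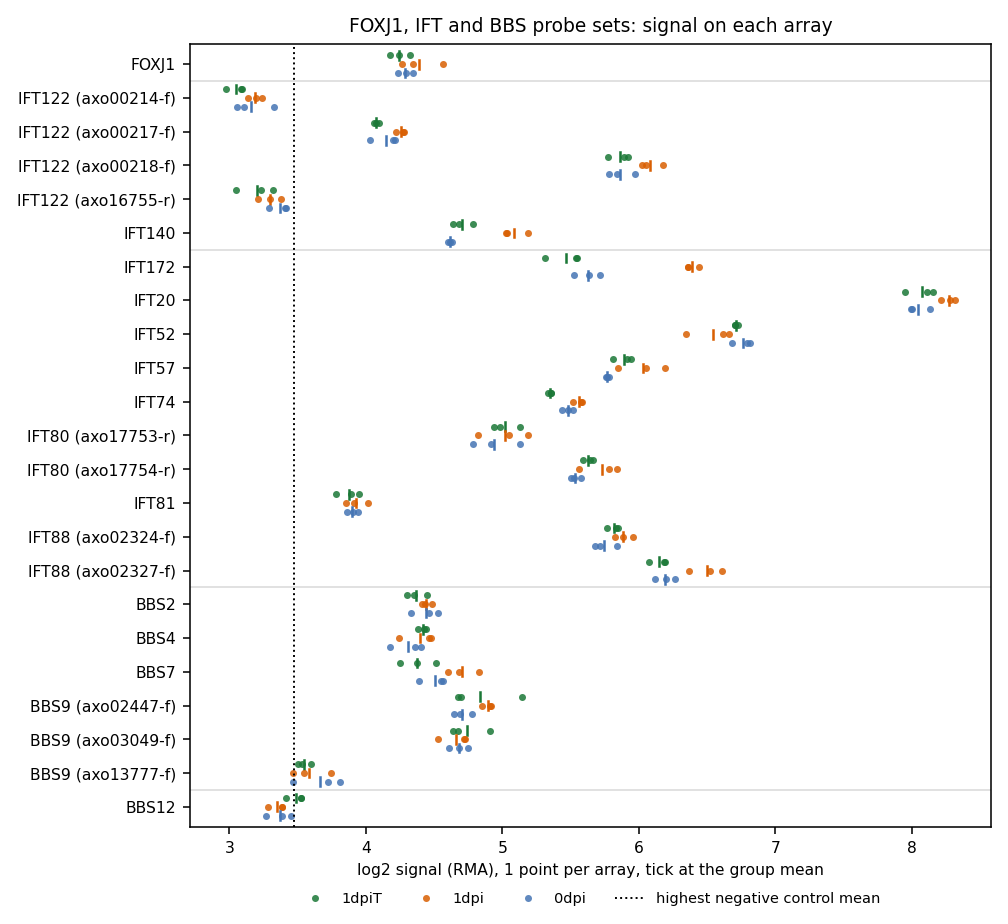
Log2 signal of FOXJ1 and the 22 IFT and BBS probe sets (rows, grouped by role) on each of the 9 arrays, as 1 point per array in 1dpiT (green), 1dpi (orange) and 0dpi (blue), with a tick at each group mean and a dotted line at the highest negative control mean (3.47). The groups lie close together in most rows, and IFT172 is the row where the 1dpi points are farthest from the others, although the direction of most of these rows depends on the scaling described in the text.

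Genes that work with the members were read from 6 lists of cilium genes, with 1 probe set per gene. Of all genes, 30.4% rose and 26.1% fell in 1dpiT vs 1dpi, 25.3% rose and 29.5% fell in 1dpi vs 0dpi, and 2.16% rose and 3.67% fell in 1dpiT vs 0dpi. The counts of each list and of the cell type markers on the deposited scale stand against these shares. Under poly-A centring, 87.5% of all probe sets rose and 5.60% fell in 1dpiT vs 1dpi, and 6.32% rose and 84.6% fell in 1dpi vs 0dpi. Counts of lists and markers under that centring stand against these other shares. With the arrays centred on their hybridization controls, 0.23% of all probe sets rose and 2.63% fell in 1dpiT vs 0dpi. Counts on that scale stand against these shares. Of 22 measured genes for the central pair, the inside of the microtubules and other motile cilium parts, 16 fell and 0 rose in 1dpiT vs 1dpi (2 fell and 14 rose under poly-A centring). In 1dpi vs 0dpi, 18 of these rose and 1, LRRIQ1, fell, which lost its call without replicate 2 or 3 of 1dpi or of 0dpi (8 rose and 7 fell under poly-A centring). ENKUR, a protein inside the doublet, read 6.97, 6.97 and 7.02 in 1dpiT, 7.96, 8.09 and 8.15 in 1dpi, and 6.70, 6.81 and 6.58 in 0dpi, differing by -1.08 ± 0.07 and 1.37 ± 0.07 in the comparisons with 1dpi. ROPN1L, a radial spoke protein, differed by -0.74 ± 0.06 and 1.04 ± 0.06, and TSGA10, a sperm tail protein, by -1.31 ± 0.12 and 1.69 ± 0.12. ENKUR, ROPN1L and SPEF1 were also called higher in 1dpiT vs 0dpi, but none of these calls held throughout: the count was 0 without replicate 2 or 3 of 1dpiT or replicate 3 of 0dpi, 1 without replicate 1 or 2 of 0dpi, and 0 with the arrays centred on their hybridization controls.

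The list for dynein arm docking and assembly and for the nexin links between doublets was mixed. Of its 13 measured genes, 6 fell and 4 rose in 1dpiT vs 1dpi, and 7 rose and 2 fell in 1dpi vs 0dpi (under poly-A centring, 1 fell and 8 rose in 1dpiT vs 1dpi, and 3 rose and 7 fell in 1dpi vs 0dpi). The nexin link genes GAS8 and CCDC65 were among those that fell in 1dpiT vs 1dpi, by 0.98 ± 0.11 and 0.68 ± 0.07, and they were 1.39 ± 0.11 and 1.00 ± 0.07 higher in 1dpi than in 0dpi. The genes that rose in 1dpiT vs 1dpi were SPAG1, RUVBL1, RUVBL2 and PIH1D1, which act in the cytoplasm as chaperones or their partners and serve other complexes besides dynein. SPAG1 read 10.18, 10.16 and 10.09 in 1dpiT, 9.61, 9.64 and 9.61 in 1dpi, and 10.27, 10.23 and 10.19 in 0dpi, a rise of 0.53 ± 0.05 in 1dpiT vs 1dpi and a fall of 0.61 in 1dpi vs 0dpi (difference -0.61 ± 0.05). The count of rises in 1dpiT vs 1dpi was 2 without replicate 2 or 3 of 1dpiT or of 1dpi. In 1dpiT vs 0dpi, CCDC65 and NME5 were called higher, NME5 with each array left out in turn and CCDC65 in 4 of these 9 fits, and with the arrays centred on their hybridization controls 0 of the list were called.

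Other transport genes had calls in both directions on the deposited scale. Of 17 measured IFT subunits under older names and IFT motors, 7 fell and 2 rose in 1dpiT vs 1dpi, and 5 rose and 2 fell in 1dpi vs 0dpi, whereas under poly-A centring 0 fell and 16 rose in 1dpiT vs 1dpi, and 1 rose and 13 fell in 1dpi vs 0dpi. DYNC2LI1, a light intermediate chain of the motor that returns IFT trains, differed by -0.75 ± 0.09 and 0.82 ± 0.09 in the comparisons with 1dpi. KIFAP3, which belongs to the outward motor kinesin-2, differed by -0.42 ± 0.06 and 0.46 ± 0.06, and the dynein light chain DYNLT1 by -0.35 ± 0.05 and 0.45 ± 0.05. The 2 that rose in 1dpiT vs 1dpi, DYNLT3 and DYNLL1, are, like DYNLT1, light chains that cytoplasmic dynein also uses. No gene of this list was called in 1dpiT vs 0dpi.

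The lists on ciliary membrane traffic and on the cilium base had calls in both directions on the deposited scale and nearly all in 1 direction under poly-A centring. Of 22 BBSome partners and membrane traffic genes, 6 rose and 5 fell in 1dpiT vs 1dpi, and 5 rose and 6 fell in 1dpi vs 0dpi (19 rose and 0 fell, then 1 rose and 20 fell, under poly-A centring). ARL6, the GTPase that recruits the BBSome, differed by -0.62 ± 0.08 and 0.69 ± 0.08, while RAB11A, a GTPase of recycling endosomes, differed by 0.67 ± 0.05 and -0.66 ± 0.05 and RP2 by 0.55 ± 0.07 and -0.37 ± 0.07. The 1 call of this list in 1dpiT vs 0dpi was PDE6D, which was lower and lost its call without replicate 2 of 1dpiT or replicate 1 or 3 of 0dpi. Of 34 transition zone and basal body genes, 6 rose and 8 fell in 1dpiT vs 1dpi, and 11 rose and 5 fell in 1dpi vs 0dpi (32 rose and 0 fell, then 0 rose and 28 fell, under poly-A centring). The 5 falls in 1dpi vs 0dpi were 3 or 4 in each of the 9 fits with an array left out, and 3 without replicate 2 or 3 of 1dpi. The 1 call of that list in 1dpiT vs 0dpi, CBY1, was lost in 8 of the 9 fits with an array left out (adjusted p up to 0.134).

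SASS6, of the same list and the cartwheel protein of new centrioles, differed by 0.96 ± 0.09 in 1dpiT vs 1dpi and -0.87 ± 0.09 in 1dpi vs 0dpi, and CETN2, a centrin of basal bodies, by -0.41 ± 0.06 and 0.44 ± 0.06. RPGR, a transition zone protein, had the largest difference of the list, but its arrays were uneven. It read 7.92, 8.16 and 8.39 in 1dpiT, 6.38, 5.92 and 5.76 in 1dpi, and 8.22, 7.43 and 6.99 in 0dpi, a difference of 2.14 ± 0.28 in 1dpiT vs 1dpi (adjusted p = 7.66e-05) and -1.53 ± 0.28 in 1dpi vs 0dpi (adjusted p = 0.000873). Of 11 ciliogenesis transcription factors and centriole amplification genes, 5 rose and 1, E2F4, fell in 1dpiT vs 1dpi, with the reverse count, 1 higher (E2F4) and 5 lower, in 1dpi vs 0dpi. The 5 were TFDP1 (0.73 ± 0.05 in 1dpiT vs 1dpi), MYB (0.95 ± 0.09), PLK4 (0.70 ± 0.11), RFX5 and CEP152, of which TFDP1, MYB and PLK4 also serve dividing cells. RFX5 was listed as a gene of the RFX family, and a part of it in ciliogenesis was not tested. RFX5 and CEP152 lost their calls in 3 and 5 of the 9 fits with an array left out in 1dpiT vs 1dpi. In 1dpi vs 0dpi they lost them in 6 and 4 of these fits. Without replicate 2 of 1dpi, 3 rose in 1dpiT vs 1dpi, and 3 fell in 1dpi vs 0dpi without replicate 2 or 3 of 1dpi or replicate 2 of 0dpi. Under poly-A centring 10 of the 11 rose and 0 fell in 1dpiT vs 1dpi, and 0 rose and 10 fell in 1dpi vs 0dpi.

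**Figure D4:**
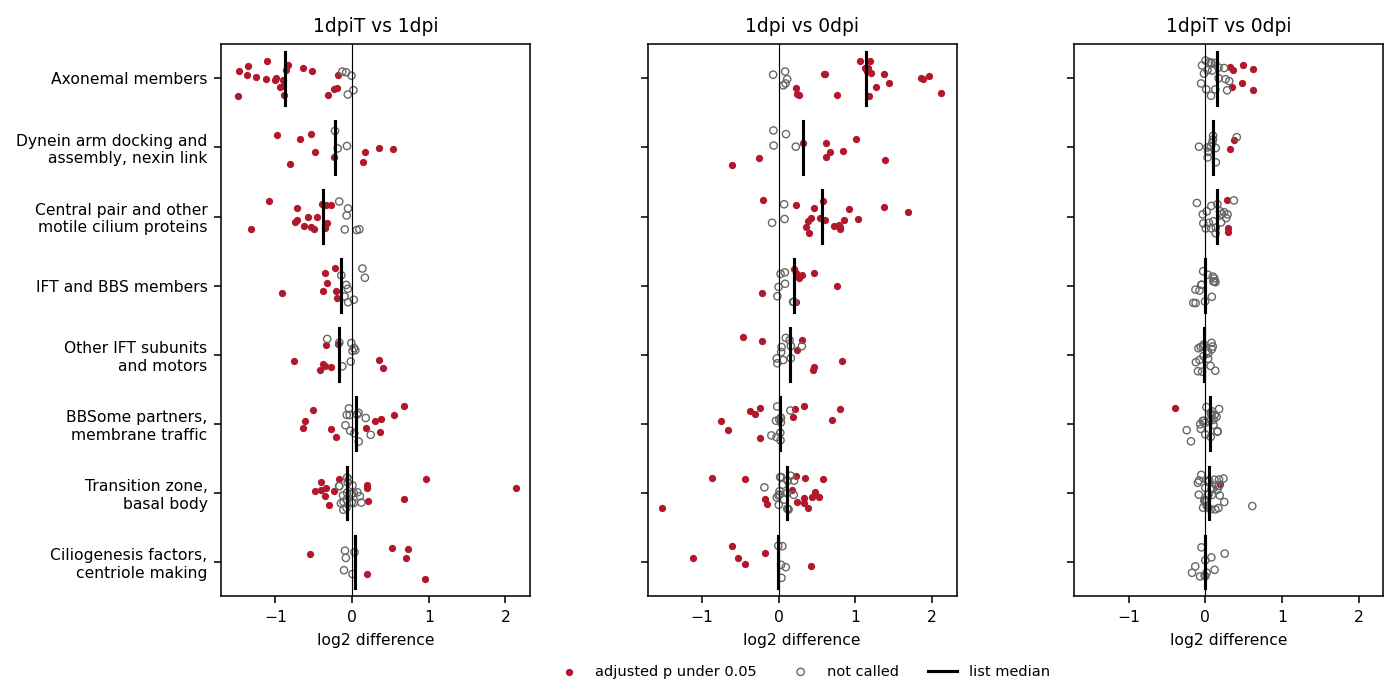
Log2 difference (horizontal axis) of each measured gene, 1 probe set per gene, in the axonemal members, the IFT and BBS members and 6 lists of other cilium genes (rows), in the 3 comparisons, with called genes as filled points, others as open circles and a bar at each list median. The axonemal and the motile cilium rows lie to the left of 0 in 1dpiT vs 1dpi and to the right in 1dpi vs 0dpi, and the other rows straddle 0. The medians of all rows but the axonemal one are positive in 1dpiT vs 1dpi when arrays are centred on poly-A spike-ins, where the median of all probe sets is 0.65.

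Markers of several cell types moved in the same comparisons. All 16 measured skeletal muscle markers fell in 1dpiT vs 1dpi and rose in 1dpi vs 0dpi, as most axonemal genes did (9 fell and 3 rose, then 12 rose and 3 fell, under poly-A centring). Their summed log2 signal ran from 169.8 to 170.1 in 1dpiT, 196.5 to 196.7 in 1dpi and 171.0 to 171.9 in 0dpi. The muscle genes MYL1, CKM and TNNI2 were the brightest, and TNNI2 differed by -0.66 ± 0.04 and 0.58 ± 0.04 in these comparisons. MYL1 lost its call in 3 and 6 of the 9 fits with an array left out, in the same order. All 17 dividing cell markers went the other way, rising in 1dpiT vs 1dpi and falling in 1dpi vs 0dpi, with sums of 155.7 to 156.1 in 1dpiT, 133.1 to 133.8 in 1dpi and 152.7 to 153.1 in 0dpi. PCNA, MCM7 and MCM6 were the brightest, and MCM7 differed by 1.64 ± 0.05 and -1.32 ± 0.05. In 1dpiT vs 0dpi, 6 muscle markers fell and 1 rose, against 7 rises and 0 falls of axonemal probe sets. The muscle falls were 4 or 5 with each array left out in turn, and 3 with the arrays centred on their hybridization controls. Of the dividing cell markers, 9 rose and 0 fell in 1dpiT vs 0dpi. With an array left out, 7 to 9 of these rose and 0 or 1 fell, and 0 rose under hybridization control centring.

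Markers of cord cells moved in both directions on the deposited scale, and the medians of the ependymoglia, neuron and myelin lists in 1dpiT vs 1dpi turned sign under poly-A centring, to 0.55, 0.47 and 0.17. The median of all probe sets was then 0.65. Of 12 ependymoglia markers, the cells that carry the motile cilia of the canal, 6 fell and 3 rose in 1dpiT vs 1dpi, and 6 rose and 1 fell in 1dpi vs 0dpi (0 fell and 9 rose, then 1 rose and 6 fell, under poly-A centring), with sums of 90.9 to 91.2 in 1dpiT, 92.3 to 92.9 in 1dpi and 89.7 to 90.5 in 0dpi. Their brightest were VIM (-0.48 ± 0.05 in 1dpiT vs 1dpi and 0.42 ± 0.05 in 1dpi vs 0dpi), GFAP (-0.18 ± 0.05 and 0.62 ± 0.05) and FABP7 (-0.75 ± 0.12 and 0.81 ± 0.12). GFAP also rose in 1dpiT vs 0dpi, by 0.44 ± 0.05, as did SLC1A3 and CDH2, but 0 of the list did with the arrays centred on their hybridization controls. The whole list ran from -0.75 to 0.73 in 1dpiT vs 1dpi and from -0.88 to 0.87 in 1dpi vs 0dpi. Its brightest genes thus do not stand for all of it. The 3 rises in 1dpiT vs 1dpi, CDH2 and MSI1 among them, were 1 without replicate 1 of 1dpiT or of 1dpi. Of 16 neuron markers, 7 fell and 1 rose in 1dpiT vs 1dpi, and 9 rose and 0 fell in 1dpi vs 0dpi (1 fell and 10 rose, then 6 rose and 8 fell, under poly-A centring). In 1dpiT vs 0dpi 5 neuron markers were called higher, but 2 without replicate 2 or 3 of 1dpiT or any replicate of 0dpi, 3 without replicate 1 of 1dpiT or replicate 2 or 3 of 1dpi, and 0 with the arrays centred on their hybridization controls. Neuron sums were 99.7 to 100.8 in 1dpiT, 104.7 to 105.9 in 1dpi and 97.6 to 98.7 in 0dpi. On the deposited scale, the neuron sums and the ependymoglia sums both had the same order as the axonemal array means, without overlap. That order rests on the scaling, since the medians of both lists in 1dpiT vs 1dpi turned sign under poly-A centring. The brightest were STMN2, NEFM and UCHL1, and UCHL1 differed by -0.74 ± 0.05 and 0.82 ± 0.05.

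The other lists were smaller or mixed on the deposited scale. Of 4 oligodendrocyte and myelin markers, 3 fell and 1 (CNP) rose in 1dpiT vs 1dpi, and the reverse held in 1dpi vs 0dpi (0 fell and 2 rose, then 0 rose and 1 fell, under poly-A centring), with sums of 31.8 to 32.1 in 1dpiT, 32.5 to 32.7 in 1dpi and 31.6 to 31.9 in 0dpi. Of 13 epithelial markers, 5 rose and 3 fell in 1dpiT vs 1dpi, and 2 rose and 7 fell in 1dpi vs 0dpi (12 rose and 1 fell, then 0 rose and 12 fell, under poly-A centring), with sums of 122.4 to 122.9 in 1dpiT, 121.6 to 122.2 in 1dpi and 124.1 to 124.3 in 0dpi. In 1dpiT vs 0dpi 4 epithelial markers fell, but 1 without replicate 2 or 3 of 1dpiT or replicate 3 of 0dpi and 2 without replicate 2 of 0dpi. Of 11 leukocyte markers, 2 rose and 5 fell in 1dpiT vs 1dpi, 4 rose and 3 fell in 1dpi vs 0dpi (9 rose and 1 fell, then 2 rose and 8 fell, under poly-A centring), and 3 fell in 1dpiT vs 0dpi, with sums of 79.3 to 79.9 in 1dpiT, 82.3 to 82.6 in 1dpi and 81.0 to 81.6 in 0dpi. Of all marker genes, MAP2 and SYT1 alone lay below the highest negative control mean. The part of each of these cell types in the cilia results was not tested.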

How the data were processed

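RNA from 3 groups of 3 pooled samples was labelled (150 ng of total RNA each) with a 3' in vitro transcription kit and hybridized to a custom axolotl array. The authors normalized the arrays with RMA in Affymetrix Expression Console and deposited 1 log2 signal per probe set and array; the sources used here give no software version. RMA corrects background and brings all arrays to 1 distribution, so it removes any difference in total RNA between arrays, and 3' probes read mainly the ends of transcripts. The values ran from 2.65 to 14.6 with 0 missing. An array gives no read depth, and the number of arrays limits the precision.

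The 45 control probe sets (24 poly-A, 18 hybridization, 3 negative) were left out, and the other 20035 probe sets all entered the fit, however dim; 1418 of them lay below the highest negative control mean of 3.47. Groups were compared with limma 3.58.1 in R 4.3.3, fitting a mean for each group to all 9 arrays with moderated variances and 2-sided tests. A call is a Benjamini-Hochberg adjusted p below 0.05 over these probe sets. Errors after ± are SEs from that fit, with n = 3 arrays in each group, except those named as SD. The script was tested on simulated data. The methods name no model for the axolotl arrays and used an uncorrected p with no fold limit on the genes analysed.

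Symbols came from the array's annotation, which gave 1 symbol to 10951 probe sets. All 42 member symbols were found in the RefSeq axolotl table. For lists and for genes, the probe set with the highest mean stood for the gene. Named members were the called genes with separate groups (up to 6 rises and 6 falls in each class and comparison), FOXJ1, and cilia members in counts of 5 or fewer. From each cilium list the 3 genes with the smallest p in 1dpiT vs 1dpi were named, and from the marker lists the 3 brightest. Small counts in the lists were not always named in full. Others were named after their values had been seen. The members and lists were chosen with earlier results of these data known. Alternatives covered the scaling, the filter on dim probe sets, the moderation, the groups in the fit, the replicate number as a block, the call rule, the summary of probe sets and each array left out. Sequences and coordinates were not used here.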

Additional observations from a re-analysis of the deposited data

How the results depend on the processing

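Array centring turned directions as well as moving counts. With each array centred on poly-A spike-ins, 12 axonemal probe sets rose and 14 fell in 1dpiT vs 1dpi and 11 fell in 1dpi vs 0dpi, with medians of -0.20, 0.55 and 0.25 in 1dpiT vs 1dpi, 1dpi vs 0dpi and 1dpiT vs 0dpi. On that scale IFT and BBS probe sets gave 21 rises and 1 fall in 1dpiT vs 1dpi, 1 rise and 20 falls in 1dpi vs 0dpi and 1 rise in 1dpiT vs 0dpi, with medians of 0.55, -0.45 and 0.086. Of all probe sets, 87.5% then rose and 5.60% fell in 1dpiT vs 1dpi, and 6.32% rose and 84.6% fell in 1dpi vs 0dpi. In 1dpiT vs 0dpi, 8.03% of all rose. Genes that turned sign in 1dpiT vs 1dpi included BBS7 (0.32), IFT122 (0.42), IFT140 (0.27), IFT74 (0.44), IFT88 (0.30), IFT20 (0.45) and FOXJ1 (0.50). Axonemal genes that did so included DNAL1 (0.42), DNAL4 (0.13), DNAH5 (0.34), DNAH3 (0.46), DNAH14 (0.45) and SPAG16 (0.014). Sign turns in 1dpi vs 0dpi included IFT122 (-0.33), IFT140 (-0.080), IFT20 (-0.32), IFT57 (-0.29), IFT88 (-0.24) and FOXJ1 (-0.44). They also included the brighter IFT80 probe set (-0.35) and the axonemal genes DNAH5 (-0.28), DNAH3 (-0.31) and DNAH14 (-0.32). FOXJ1 read 0.060 in 1dpiT vs 0dpi. Of all calls, 94.0%, 6.95% and 82.4% were then rises in the 3 comparisons, against 53.7%, 46.7% and 40.3% on the deposited scale. Centring on hybridization controls was chosen after seeing the data. It left 2 axonemal rises in 1dpiT vs 0dpi, where 0.23% of all probe sets rose. Of the 22 IFT and BBS probe sets, 2 fell in 1dpiT vs 1dpi, where 15.76% of all fell. In 1dpi vs 0dpi, 1 of the 22 rose, where 11.03% of all rose. Axonemal probe sets still gave 18 falls and 1 rise in 1dpiT vs 1dpi. In 1dpi vs 0dpi they gave 19 rises and 1 fall. Axonemal medians were then 0.94 in 1dpi vs 0dpi and 0.018 in 1dpiT vs 0dpi. IFT and BBS medians in the same comparisons were -0.059 and -0.15. FOXJ1 turned to -0.054 in 1dpi vs 0dpi, and rises made up 58.2%, 27.0% and 8.03% of all calls. Hybridization control centring moved the median of all probe sets by -0.16 in 1dpi vs 0dpi and -0.13 in 1dpiT vs 0dpi. Centring on the array median gave axonemal medians of -0.90 and 1.14 and IFT and BBS medians of -0.14 and 0.14 in 1dpiT vs 1dpi and 1dpi vs 0dpi, and 0 falls of either class in 1dpi vs 0dpi.

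Without the dimmest 50% of probe sets, fewer members were tested, 9 axonemal and 5 IFT and BBS. All 9 axonemal members fell in 1dpiT vs 1dpi and all 9 rose in 1dpi vs 0dpi. Of the 5 IFT and BBS members, 3 fell in 1dpiT vs 1dpi and 4 rose in 1dpi vs 0dpi. The cut used the mean over all 9 arrays, 1dpi among them, so it favours members that are high in 1dpi. The shares of all probe sets kept in that fit were not counted. With a mean of 5 or more, 30.4% of all fell in 1dpiT vs 1dpi and 30.1% rose in 1dpi vs 0dpi in the main fit. Without the dimmest probe sets, medians were 1.15 and 0.28 for axonemal members in 1dpi vs 0dpi and 1dpiT vs 0dpi, and -0.19 and 0.23 for IFT and BBS members in 1dpiT vs 1dpi and 1dpi vs 0dpi. By the unadjusted 2-fold rule, 9 axonemal falls and 0 rises were counted in 1dpiT vs 1dpi, 0 falls in 1dpi vs 0dpi and 0 rises in 1dpiT vs 0dpi, and IFT and BBS members gave 0 falls in 1dpiT vs 1dpi and 0 rises and 0 falls in 1dpi vs 0dpi. With 1 probe set per gene, which leaves out the DNAH9 probe set, 0 axonemal rises in 1dpiT vs 1dpi and 0 falls in 1dpi vs 0dpi were left, the axonemal median in 1dpi vs 0dpi was 1.14, and IFT and BBS medians were -0.14 in 1dpiT vs 1dpi and 0.19 in 1dpi vs 0dpi. With the mean over the probe sets of a gene, 0 axonemal genes fell in 1dpi vs 0dpi, the axonemal median there was 1.14, and IFT and BBS medians were -0.14 in 1dpiT vs 1dpi and 0.012 in 1dpiT vs 0dpi. With 2 groups in the fit, 0 IFT and BBS members fell in 1dpi vs 0dpi. With each array left out in turn, axonemal rises in 1dpiT vs 0dpi ran from 3 to 6, axonemal falls in 1dpi vs 0dpi from 0 to 1, and IFT and BBS members had 4 to 7 rises and 0 to 1 falls in 1dpi vs 0dpi and 0 to 1 rises in 1dpiT vs 1dpi. Axonemal medians ran from -0.86 to -0.79 in 1dpiT vs 1dpi and from 1.04 to 1.10 in 1dpi vs 0dpi, and IFT and BBS medians from -0.14 to -0.075 in 1dpiT vs 1dpi, 0.10 to 0.17 in 1dpi vs 0dpi and -0.042 to -0.0060 in 1dpiT vs 0dpi. The causes were not tested.

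The replicate numbers were tried as a block, since the groups share them. The deviations of same-numbered arrays correlated negatively in 1dpiT vs 1dpi (r = -0.22 to -0.04) and in 1dpiT vs 0dpi (-0.18 to -0.08). In 1dpi vs 0dpi they correlated positively (0.07 to 0.23). Some arrays of 1dpi correlated best with their own number in 0dpi, and the other arrays with another number. With so few arrays in a group, these values cannot decide whether same-numbered samples were paired. The block changed the calls over all probe sets to 10492 from 10828 in 1dpiT vs 1dpi, 10273 from 10597 in 1dpi vs 0dpi and 809 from 1122 in 1dpiT vs 0dpi. Single members were followed in the block fit only for FOXJ1, DNAH9 (axo10317-f_at) and the called genes with separate groups and the largest differences. Of these, DNAL1 in 1dpiT vs 0dpi was no longer called (limma, adjusted p = 0.0699).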
